A study of Mus musculus with 10 samples.

Results

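The genes described here are 36 genes of chromatin regulation, transcription and signalling in which mutations have been linked to autism or to syndromes with autistic features. They were taken by gene symbol from the 22046 protein-coding genes of the deposited table, and all 36 symbols were found. The list was chosen with earlier results of these data known. They were followed in total RNA and in ribosome footprints, the short stretches of RNA that a ribosome shields from nuclease, from cerebellum of mice with and without Bmal1. Bmal1, listed under its symbol Arntl, encodes a clock transcription factor that pairs with CLOCK on E-box DNA. The knockout animals were Bmal1-/- and the wild-type animals were their Bmal1+/+ littermates, all on a C57BL/6 background and bred from heterozygous parents. The deletion was in the whole animal and not limited to the cerebellum. The labels give a cycle of 12 h light and 12 h dark for all samples. They give neither age, sex nor the hour at which tissue was taken.

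Most of these genes act in the nucleus. CHD and BAF proteins move nucleosomes with energy from ATP, KMT2 and related enzymes methylate histone tails, and FOXP, TCF4 and BCL11A proteins bind DNA to set neuronal identity, with Mediator linking such factors to RNA polymerase II. The rest tag proteins with ubiquitin, pass on Wnt, Ras and kinase signals, repress translation of neuronal RNA in the case of FMRP, or hold axons and migrating neurons in place, as ankyrins, CASPR2, DSCAM and reelin do. In the cerebellum, granule neurons secrete reelin during migration and Purkinje cells express FOXP2.

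Each comparison set knockout animals 1 and 3 against wild-type animals 2 and 3, with 1 footprint and 1 total RNA library an animal. Total RNA of 1 further animal of each genotype was not analysed here. The 8 libraries held 25.6 M to 43.2 M recovered reads. Arntl total RNA was 267 and 272 RPKM (reads scaled by length and depth) in knockout against 179 and 179 in wild type, and its footprints were 124 and 107 against 258 and 295. Where in Arntl the deletion lies is not stated in the labels. All 15 granule neuron markers and all 14 Purkinje cell markers were above the filter, so the libraries carried the main cerebellar neurons. Summed choroid plexus markers set wild-type animal 3 apart, at 282 RPM (total RNA reads scaled to library size) against 1458 in wild-type animal 2 and 2723 and 3151 in the knockout animals. Microglia sums were 163 and 170 RPM in knockout against 226 and 231, and oligodendrocyte sums 3999 and 3833 against 6018 and 4417. Of 9 neighbouring brainstem and midbrain markers, the 3 with recovered reads summed to 90.7 and 95.8 RPM against 136 and 134. The sum leaves out the others. Of the 7 tested in total RNA, 1 was called higher in knockout and 1 lower. Purkinje, interneuron and unipolar brush cell sums were also lower in both knockout animals. Granule neuron sums were higher, and astrocyte and endothelial sums overlapped. In bulk tissue, fewer cells of a type and less RNA per cell cannot be told apart.

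Because BMAL1 with CLOCK binds the E-box CACGTG, the 250 bases before each RefSeq start site (build GRCm38.p6) were searched for these letters, which read the same on both strands. The search covered 26 members, of which 3 held the motif: Mbd5, Reln and Fmr1. The other 10, Asxl3, Chd2, Chd7, Ash1l, Kmt2e, Ank3, Foxp2, Wac, Tcf4 and Auts2, were not searched. The motif was in 4 of the 39 windows of those 26 genes (10.3%), 2 of them overlapping windows of Fmr1 that hold the same letters, and in 6.02% of all 32851 windows of that length. For each of the 3 genes the window is shown, for Fmr1 that of the first start, because it holds the letters, with the motif in capitals and 5′ to 3′ on the gene's strand. They are Mbd5 at chr2:48949258-48949507 on the plus strand, Reln at chr5:22344706-22344955 on the minus strand and Fmr1 at chrX:68678291-68678540 on the plus strand.
Mbd5: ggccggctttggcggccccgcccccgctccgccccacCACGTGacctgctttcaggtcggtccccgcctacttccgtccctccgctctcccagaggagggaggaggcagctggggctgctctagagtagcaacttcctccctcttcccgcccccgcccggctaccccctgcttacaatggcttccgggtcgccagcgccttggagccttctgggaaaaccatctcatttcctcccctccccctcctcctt
Reln: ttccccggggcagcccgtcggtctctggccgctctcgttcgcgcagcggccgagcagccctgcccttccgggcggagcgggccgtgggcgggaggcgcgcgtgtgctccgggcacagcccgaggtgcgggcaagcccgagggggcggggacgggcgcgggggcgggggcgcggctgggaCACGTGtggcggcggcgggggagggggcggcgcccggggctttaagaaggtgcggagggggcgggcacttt
Fmr1: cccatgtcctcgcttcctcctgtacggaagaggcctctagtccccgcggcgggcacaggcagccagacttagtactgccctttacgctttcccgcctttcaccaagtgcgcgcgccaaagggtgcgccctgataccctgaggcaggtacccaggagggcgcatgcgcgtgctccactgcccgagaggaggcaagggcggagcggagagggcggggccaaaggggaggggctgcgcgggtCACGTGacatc
The motif began 213 bases before the start in Mbd5, 71 before it in Reln and 11 before it in Fmr1. A match describes the letters and is no evidence of binding. Total RNA of these 3 genes was not called different between genotypes: the log2 difference, knockout minus wild type, was 0.06 (SE 0.14) for Mbd5, 0.19 (SE 0.10) for Reln and -0.05 (SE 0.07) for Fmr1, with adjusted p = 0.839, 0.334 and 0.728 by limma.

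In total RNA, 1 of the 35 members tested rose in knockout cerebellum, Asxl3, and none fell. Differences were computed with limma on log2(RPKM + 1) over all genes with a mean of at least 1 RPKM, and a gene was called at a Benjamini-Hochberg adjusted p under 0.05. The same rule called 4.09% of all genes tested, 315 higher (2.48%) and 204 lower (1.61%). At an unadjusted p under 0.05 there were 6 members (17.1%), all higher in knockout, beside 22.1% of all genes (10.7% higher and 11.4% lower). With limma-voom on recovered reads 4 members were called, Asxl3, Chd7, Ank3 and Arid1b, all higher and beside 11.8% of all genes. Both knockout libraries were above both wild-type libraries for 11 members, 31.4% beside 24.7% of all genes, and below them for 8 members, 22.9% beside 30.3%. The difference was positive for 22 of 35 members, 62.9% beside 46.7% of all genes, and the median was 0.06 for members and -0.02 for all genes. Apart from Asxl3, every member's difference was at most 0.305 in size on the log2 scale, and for 31 of the 35 the 95% interval lay within 0.5 of 0.

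In footprints, no member was called by limma, beside 0.233% of all genes. At an unadjusted p under 0.05 there were 4 members, Asxl3 higher and Tbl1xr1, Cntnap2 and Kmt2e lower, which is 11.4% beside 10.4% of all genes (4.69% higher and 5.7% lower), and limma-voom on recovered reads called 0 (1.69% of all genes). Footprints did not overlap between genotypes for 7 members with knockout higher (20.0% beside 17.1%) and 4 with knockout lower (11.4% beside 22.6%). The difference was positive for 14 members, 40.0% beside 44.8%, and the median was -0.02 for members and -0.03 for all genes. For translational efficiency, the change in footprints relative to total RNA, no member was called by limma, none had an unadjusted p under 0.05 and none was called by limma-voom. Over all genes the corresponding shares were 0.0165%, 4.55% and 0.00835%. The authors' footprint-to-total ratio was higher in both knockout animals than in both wild-type animals for 3 members (8.57% beside 14.3%), Asxl3, Dscam and Reln, and lower for 5 (14.3% beside 17.5%), Kmt2a, Setd5, Tbl1xr1, Dyrk1a and Nf1. The fitted efficiency difference was positive for 13 members, 37.1% beside 46.6%, with a median of -0.06 beside -0.02.

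**Figure D1:**
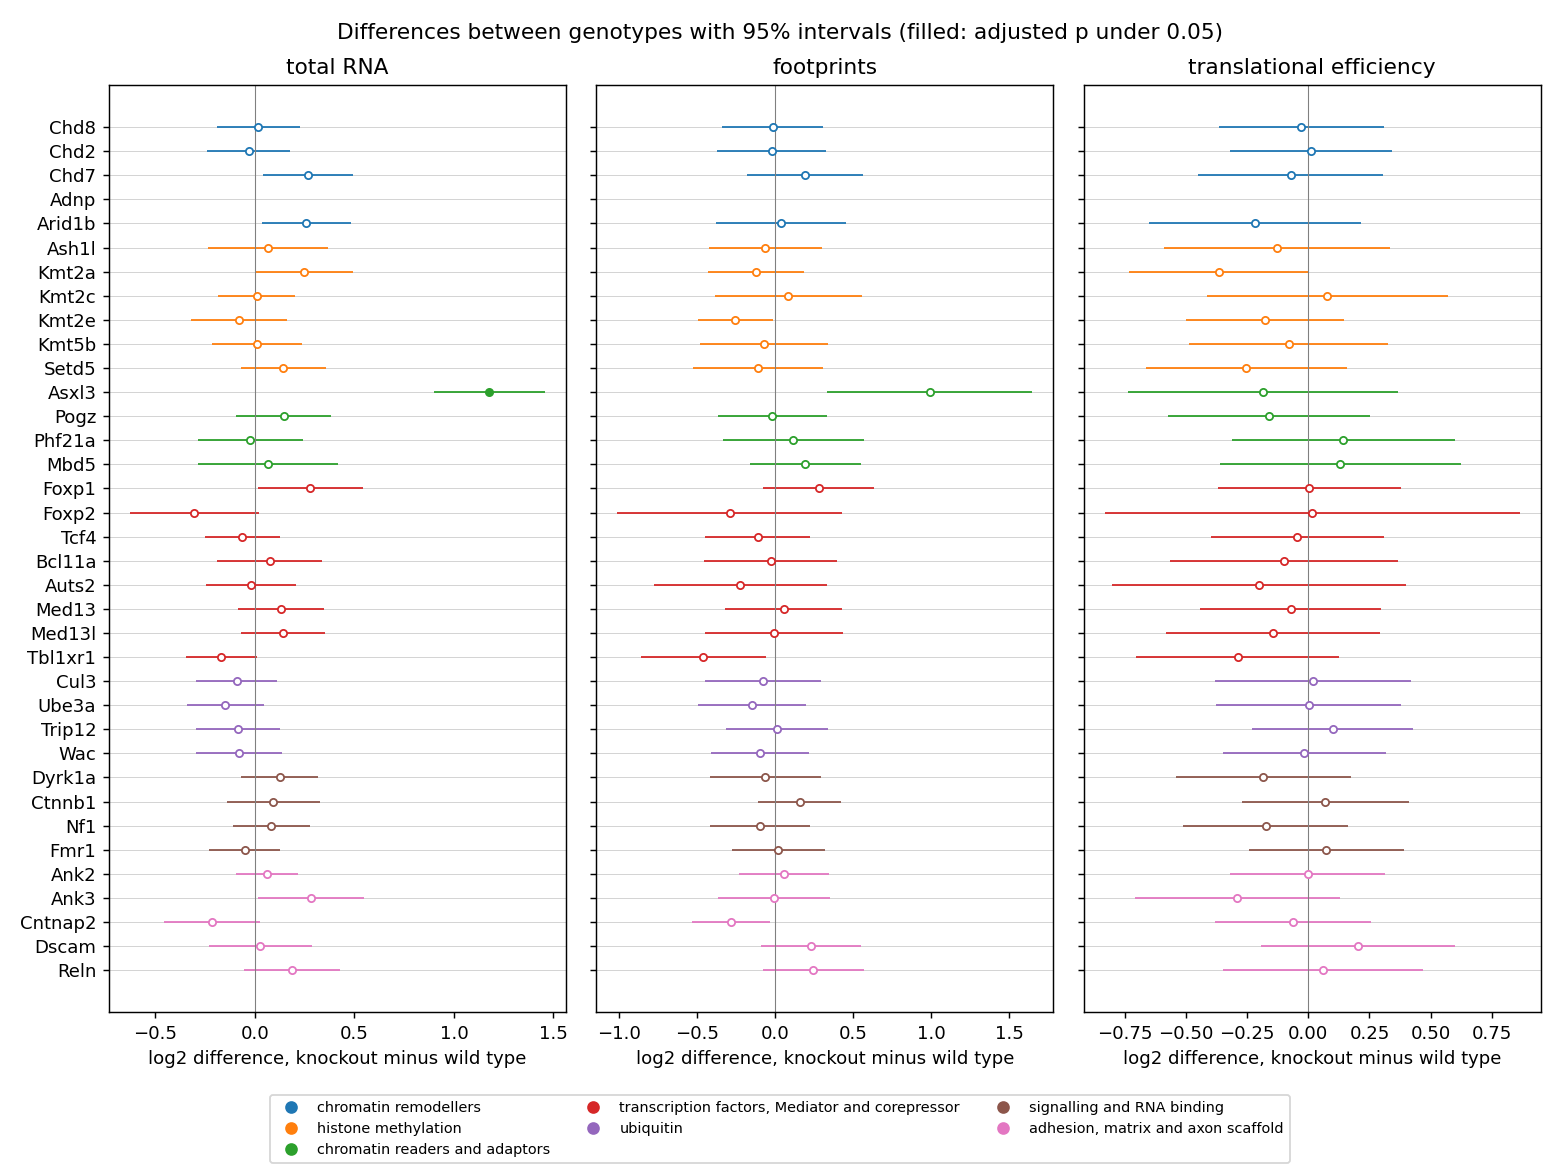
Log2 difference, knockout minus wild type, of each member in total RNA, footprints and translational efficiency, with 95% intervals; filled points have an adjusted p under 0.05. Asxl3 in total RNA, at 1.18, is the only filled point, and Adnp has none because it was under the filter.

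Asxl3 encodes a Polycomb-linked chromatin adaptor that partners the deubiquitinase BAP1. The gene lies on chromosome 18, 22344883 to 22530227, plus strand (mm10). Its total RNA was 7.38 and 7.34 RPKM in knockout animals and 2.59 and 2.81 in wild-type animals. The 2 groups stood far apart, and animals of a genotype were nearly equal. The ratio of means was 2.73, and the log2 difference was 1.18 (SE 0.11, 95% interval 0.90 to 1.46, limma adjusted p = 0.00822). In recovered reads, which are not scaled to depth, these values were 1190 and 1317 against 281 and 326. Total RNA depth was 38.9 M and 43.2 M recovered reads in knockout and 25.6 M and 27.8 M in wild type. Footprints were 1.75 and 2.53 RPKM in knockout and 0.506 and 0.631 in wild type, again without overlap and with a ratio of means of 3.76. Their log2 difference of 0.99 (SE 0.26, unadjusted p = 0.011) did not pass over all genes in limma, at adjusted p = 0.282, and the counts behind it were 276 and 295 reads against 74 and 67. Footprint means were 2.14 RPKM in knockout and 0.569 in wild type. Asxl3 therefore passed the filter of 1 RPKM in footprints, and so in efficiency, only through its knockout libraries. Its p-values in these 2 comparisons are a description only.

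The log2 difference of Asxl3 in total RNA was 1.18 in the main fit and 1.42 with a pseudocount of 0.1. With limma-voom on recovered reads it was 1.46. It was positive in every setting, but its call did not hold in all of them. Without knockout animal 1 the log2 difference was 1.17 and the limma adjusted p 0.0532, and with no filter on low values they were 1.18 and 0.0652, while without another animal it was between 0.0175 and 0.0442. Its footprint-to-total ratio was 0.237 and 0.344 in knockout and 0.196 and 0.225 in wild type. The fitted efficiency difference was -0.19 (SE 0.24) with the pseudocount of 1, 0.31 with a pseudocount of 0.1 and 0.44 on recovered reads, so its sign depends on the scale at this low level, and no setting called it. The summed choroid plexus markers were higher in the knockout animals, with 1 of 6 tested called higher and none listed at 0 in all total RNA libraries. The sums were 1458 and 282 in the wild-type animals with Asxl3 at 2.59 and 2.81, and their part in the Asxl3 value was not tested.

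**Figure D2:**
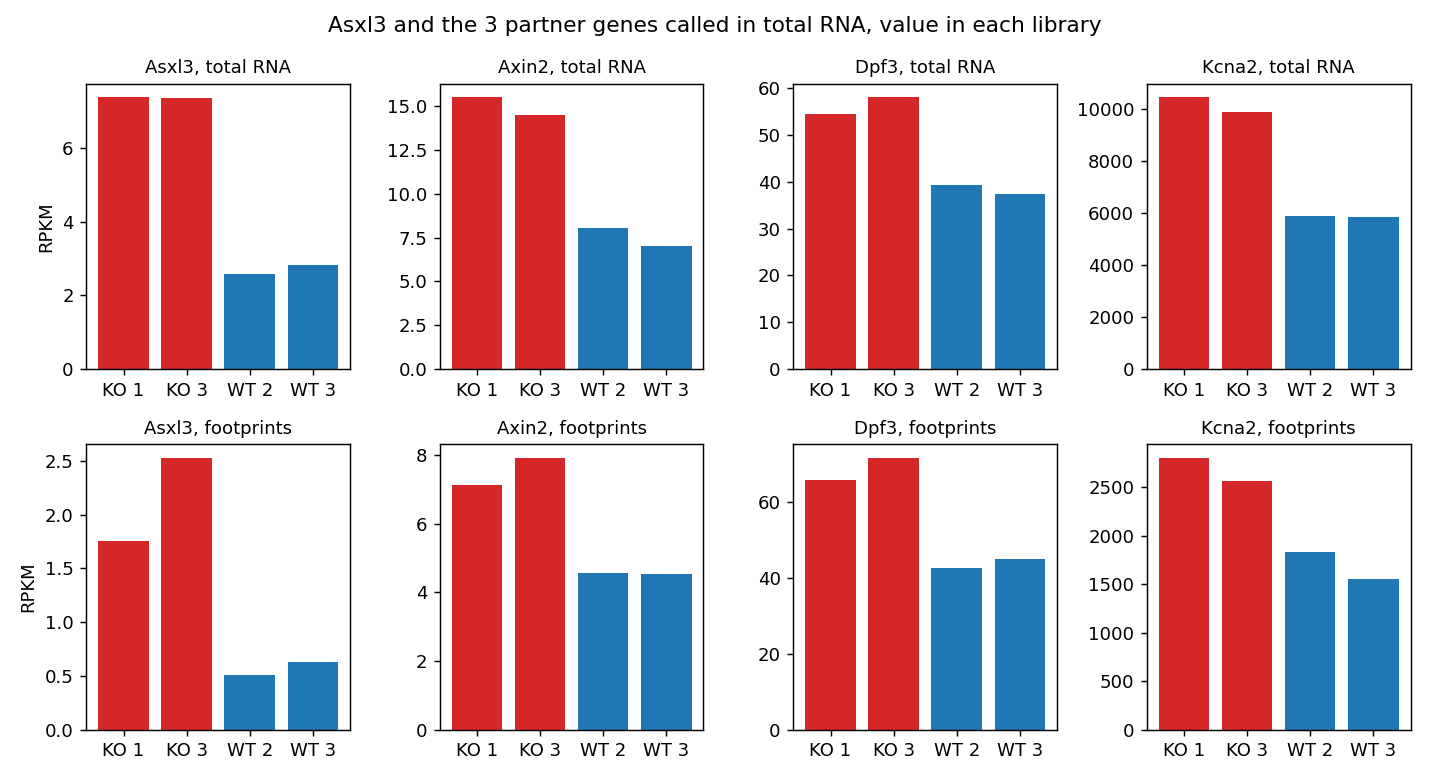
RPKM in each library for Asxl3 and for the 3 partner genes called in total RNA (Axin2, Dpf3 and Kcna2); bars are single libraries, KO is knockout and WT wild type. In all 8 panels both knockout bars are above both wild-type bars. Over all genes this held for 24.7% in total RNA and 17.1% in footprints, and the genes shown were picked by their call in total RNA.

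Among the chromatin remodellers, Chd7, a remodeller that acts at enhancers and is the CHARGE syndrome gene, had total RNA of 141 and 125 RPKM in knockout against 110.2 and 110.4 in wild type. Arid1b, a DNA-binding BAF subunit, had 46.3 and 43.9 against 38.4 and 36.7. Neither gene's groups overlapped, and both ratios of means were near 1.2 (1.21 and 1.20). The log2 differences were 0.27 (SE 0.09) and 0.26 (SE 0.09), with limma adjusted p of 0.174 and 0.180 and limma-voom adjusted p of 0.0314 and 0.0462. Footprints of Arid1b overlapped, at 31.1 and 39.4 in knockout and 32.6 and 35.4 in wild type. Its ratio of 0.671 and 0.897 beside 0.849 and 0.965 gave an efficiency difference of -0.22 (SE 0.19), which was -0.01 without knockout animal 1 and -0.42 without knockout animal 3. Chd8, a repressor of Wnt targets, and Chd2 differed by 0.02 and -0.03 in total RNA. Adnp, an activity-dependent homeobox protein that binds chromatin with CHD4 and HP1, was the 1 member not tested: total RNA was 0.458 and 0.495 RPKM in knockout and 0.473 and 0.784 in wild type, under the filter.

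Of the 6 histone methylation genes, which all encode SET-domain proteins, none was called in any comparison. Kmt2a, the founding MLL methyltransferase for histone H3 lysine 4, had total RNA of 742 and 686 RPKM in knockout against 650.2 and 555 in wild type. Its footprints were 240.2 and 210.0 against 245 and 243, below both wild-type values. The log2 differences were 0.25 (SE 0.10, limma adjusted p = 0.223) in total RNA and -0.12 (SE 0.12, limma adjusted p = 0.864) in footprints. Kmt2a thus had opposite directions in the 2 kinds of library with neither called, and its nearest footprint values were 240.2 in knockout and 243 in wild type. Its ratio of 0.324 and 0.306 against 0.377 and 0.437 gave an efficiency difference of -0.37 (SE 0.16, unadjusted p = 0.0511, limma adjusted p = 0.997). Kmt2e, a reader-like MLL relative, had footprints of 1271 and 1257 against 1471 and 1545, lower without overlap at -0.25 (SE 0.10, limma adjusted p = 0.449), and total RNA of 2405 and 2345 against 2748 and 2287, which overlapped. Setd5 had an efficiency difference of -0.25 (SE 0.18), from ratios of 0.334 and 0.369 against 0.373 and 0.476. It was -0.09 without wild-type animal 3 and -0.42 without wild-type animal 2. Kmt2c, whose enhancer-marking enzyme has the longest coding sequence of the set at 14712 nt, had overlapping ratios of 0.394 and 0.334 beside 0.300 and 0.392. Ash1l and Kmt5b differed by 0.07 and 0.01 in total RNA.

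Beside Asxl3, no other chromatin reader or adaptor was called in any comparison. Mbd5, a methyl-binding-domain protein, had footprints of 34.4 and 36.6 in knockout against 28.9 and 32.9 in wild type, without overlap, at 0.19 (SE 0.14, limma adjusted p = 0.770). Phf21a, the CoREST-complex reader of unmethylated histone H3, had ratios of 0.211 and 0.258 beside 0.178 and 0.244, which overlapped. Pogz, a heterochromatin-binding zinc-finger protein, differed by 0.14 (SE 0.10) in total RNA and by -0.02 (SE 0.14) in footprints.

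Among transcription factors, Foxp1 was higher in both kinds of library without passing the test. Its total RNA was 40.3 and 36.8 RPKM in knockout against 33.7 and 29.6, and its footprints were 17.0 and 16.7 against 13.9 and 13.4. The differences were 0.28 (SE 0.11) and 0.28 (SE 0.14), with limma adjusted p of 0.207 and 0.598. Foxp2, the Purkinje-cell paralog, had a total RNA difference of -0.31 (SE 0.13, limma adjusted p = 0.247), from 65.7 and 62.6 against 70.1 and 90.1. Wild-type animal 3 was far above the other 3, and the difference was -0.13 without it and -0.48 without wild-type animal 2. Footprints of Foxp2 were 80.7 and 56.5 beside 64.7 and 105.7 and overlapped. The summed Purkinje markers, which include Foxp2, were 12971 and 14166 RPM in knockout total RNA and 14176 and 15488 in wild type; their part in the Foxp2 value was not tested.

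Tbl1xr1, a subunit of the NCoR corepressor complex, was lower in knockout in every pair of libraries. Its total RNA was 385 and 378 RPKM against 424 and 435, and its footprints were 149.9 and 115.5 against 177 and 185. The differences were -0.17 (SE 0.07) in total RNA and -0.46 (SE 0.16) in footprints, with limma adjusted p of 0.246 and 0.402. The footprint difference was -0.27 without knockout animal 3. The efficiency difference was -0.29 (SE 0.18), from ratios of 0.389 and 0.305 against 0.419 and 0.425. Auts2, a Polycomb-associated activator, had footprints of 28.2 and 42.4 beside 38.1 and 43.0, so that knockout animal 1 alone was low. Tcf4, Bcl11a and the Mediator kinase-module subunits Med13 and Med13l lay between -0.06 and 0.14 in total RNA.

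All 4 ubiquitin genes were lower in knockout total RNA without overlap, by small amounts and with none called. The share of all genes lying lower without overlap was 30.3%. Cul3, the cullin scaffold of a ubiquitin ligase, had 109 and 113 RPKM against 122 and 115. Ube3a, the Angelman syndrome ligase, had 677 and 719 against 805 and 744. Their differences were -0.09 (SE 0.08) and -0.15 (SE 0.08), and those of Trip12, a HECT ligase, and Wac, which promotes histone H2B ubiquitination, were -0.09 (SE 0.09) and -0.08 (SE 0.09). In footprints the 4 ranged from -0.15 to 0.01, and each had overlapping groups. Trip12 had an efficiency difference of 0.10 (SE 0.14), from ratios of 0.824 and 0.762 against 0.712 and 0.766.

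Signalling genes moved little. Dyrk1a, a kinase whose human gene lies in the Down syndrome region, had total RNA of 171 and 165 RPKM in knockout against 152 and 156, a difference of 0.12 (SE 0.08) with limma adjusted p = 0.415. Ctnnb1, beta-catenin, differed by 0.09 (SE 0.10) in total RNA and 0.16 (SE 0.11) in footprints, and Nf1, the Ras GTPase-activating protein neurofibromin, by 0.08 (SE 0.08) and -0.09 (SE 0.13). Fmr1 footprints were 907 and 774 against 818 and 831, and the wild-type pair lay inside the knockout pair.

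Among genes of adhesion and the axon, Ank3, the ankyrin that anchors sodium channels at the axon initial segment, had total RNA of 92.1 and 87.7 RPKM in knockout against 80.4 and 67.6. The difference was 0.28 (SE 0.11), with adjusted p = 0.208 by limma and 0.0315 by limma-voom. Its footprints were 53.8 and 61.9 beside 55.0 and 61.2, almost the same range, and its efficiency difference was -0.29 (SE 0.18). Without wild-type animal 3 these differences were 0.16 in total RNA and -0.09 in efficiency. Cntnap2, the CASPR2 protein that clusters potassium channels beside the node, was lower in both kinds of library. Its total RNA was 535 and 480.0 against 628 and 552, and its footprints were 675 and 686 against 842 and 808. The differences were -0.22 (SE 0.10) and -0.28 (SE 0.10), with limma adjusted p of 0.267 and 0.417. That in total RNA was -0.12 without wild-type animal 2 and -0.14 without knockout animal 3.

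Dscam, a homophilic guidance receptor, had overlapping total RNA and footprints of 307 and 261 RPKM against 238 and 244. Its ratio, 0.513 and 0.524 against 0.457 and 0.442, gave an efficiency difference of 0.21 (SE 0.17, limma adjusted p = 0.997). Reln, the secreted reelin glycoprotein, had total RNA of 2708 and 2844 against 2228 and 2669, and footprints of 3001 and 3151 against 2335 and 2877. Both knockout values were higher in each kind, at 0.19 (SE 0.10) and 0.25 (SE 0.13), with limma adjusted p of 0.334 and 0.619. The footprint difference was 0.10 without wild-type animal 2. The summed granule neuron markers, Reln among them, were 11049 and 11010 RPM in knockout total RNA and 9057 and 9715 in wild type, with 3 of 15 markers called higher; their part in the Reln value was not tested. Ank2 differed by 0.06 (SE 0.06) in both kinds, with an SE of 0.12 in footprints.

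**Figure D3:**
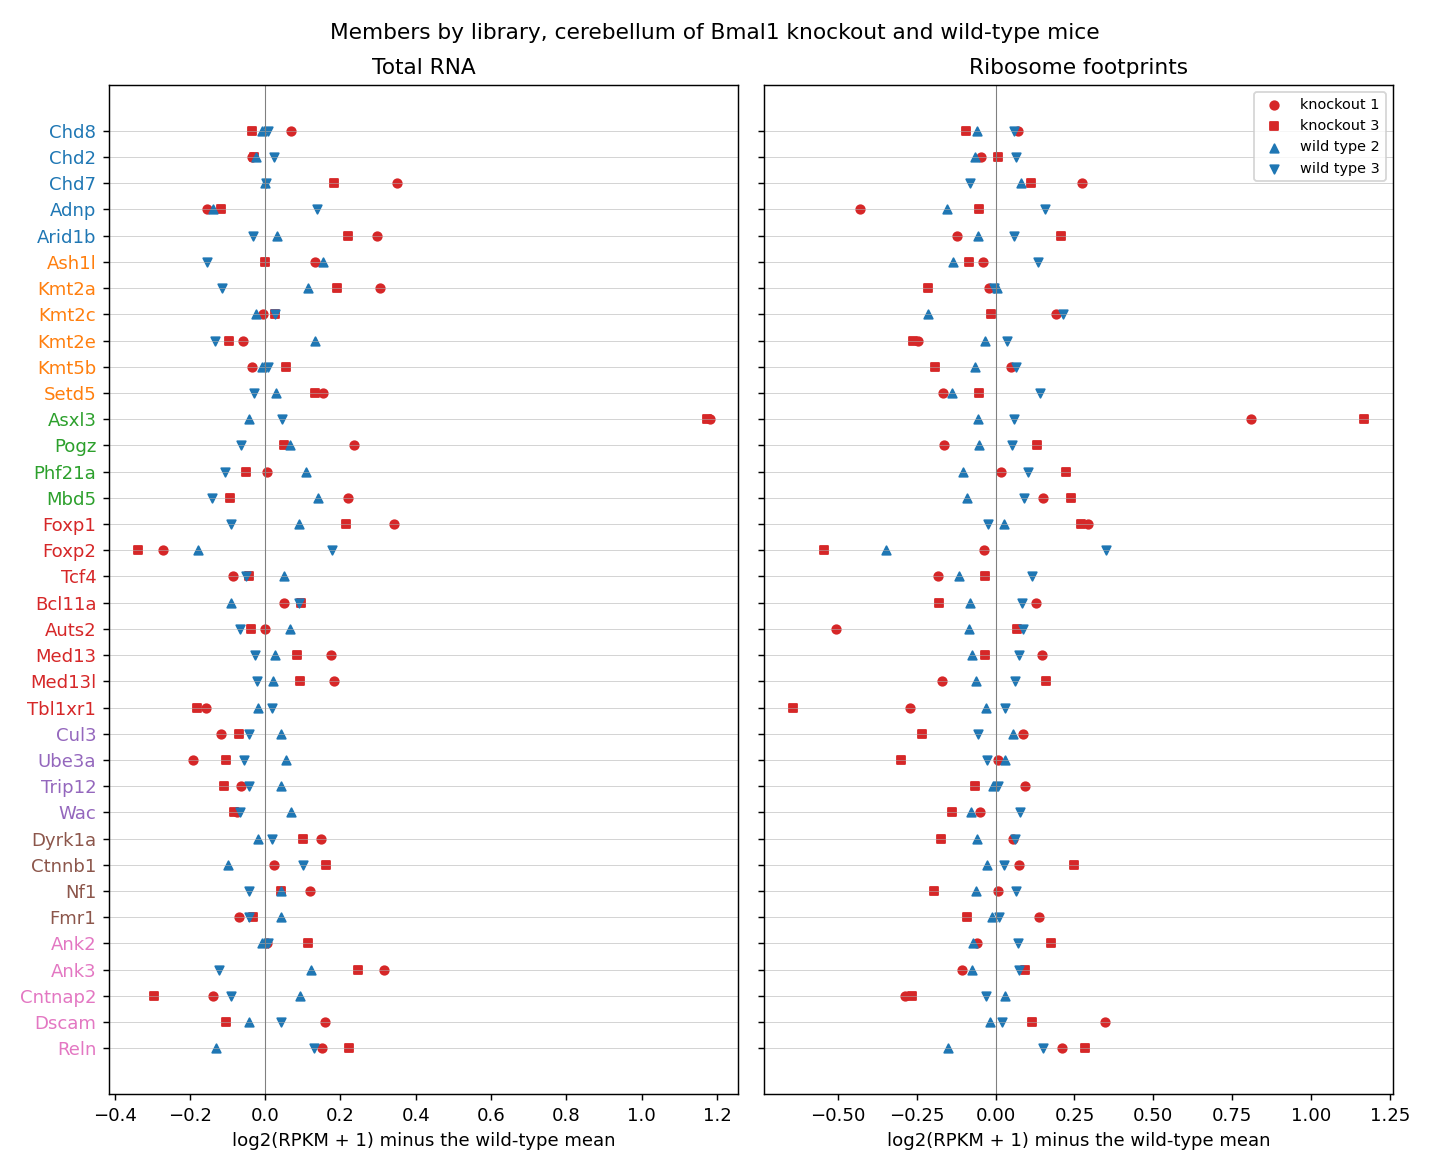
Log2(RPKM + 1) of each member in each library minus the wild-type mean, for total RNA and footprints; red symbols are knockout animals 1 and 3, blue symbols wild-type animals 2 and 3. Asxl3 stands near 1.2 in both knockout total RNA libraries, and most other points lie within 0.4 of 0.

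Most of these genes had a footprint-to-total ratio below the median of all genes. The ratio is taken within a gene, but the region in which the authors counted reads is not given in the sources used here. Whether the ratio is comparable between genes could therefore not be checked, and its levels are set side by side as a description only. In wild-type animals its median was 0.605 over the 35 members and 0.965 over all 12089 genes tested, whose quartiles were 0.597 and 1.51. The ratio was below the median of all genes for 26 of the 35 and below their lower quartile for 16. It was above the median for 9 and above the upper quartile for 2, Cul3 and Ctnnb1. In knockout animals the medians were 0.569 and 0.958.

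Medians by role are given as a description of 4 to 8 genes each, and differences between roles were not tested. The wild-type medians were 0.227 in the chromatin readers and adaptors, 0.478 in histone methylation genes and 0.491 in transcription factors, Mediator and corepressor genes. Remodellers stood at 0.643, signalling genes at 0.856, adhesion and axon genes at 0.926 and ubiquitin genes at 0.929. Most roles overlapped widely: the readers and adaptors ran from 0.210 to 1.48, the transcription group from 0.193 to 1.41 and the remodellers from 0.239 to 1.24, while histone methylation genes ran from 0.346 to 0.605. Single members ran from Med13l, at 0.181 and 0.204 in the 2 wild-type animals, to Cul3 at 2.01 and 1.98, a range far wider than the difference between animals. Asxl3 (0.210), Phf21a (0.211), Chd7 (0.239) and Mbd5 (0.242) were also near the bottom, each with fewer than 5% of all genes below it (3.3%, 3.3%, 4.4% and 4.5%). Ctnnb1, at a mean of 1.62, and Pogz, at 1.48, were near the top.

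**Figure D4:**
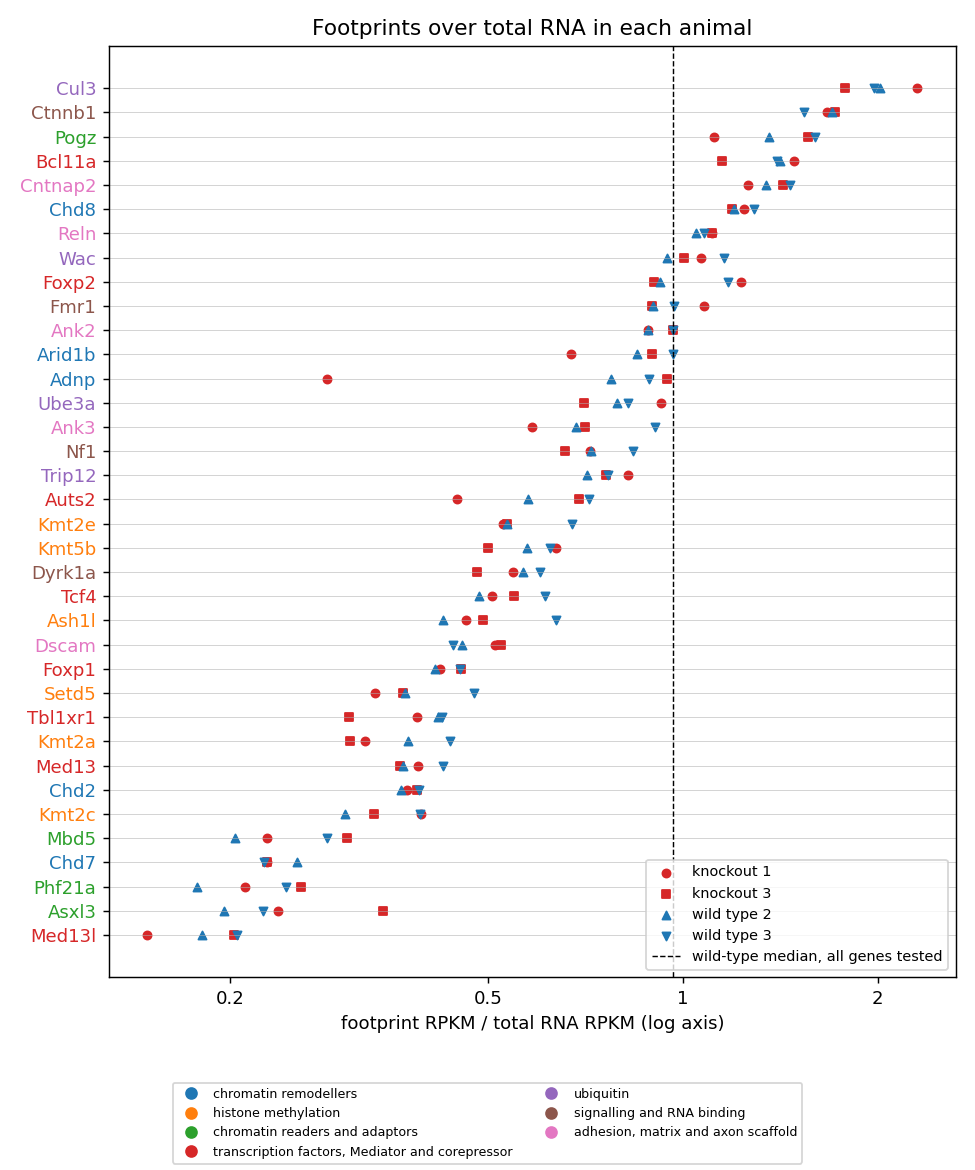
Footprint RPKM over total RNA RPKM in each animal for the 36 members, ordered by the wild-type mean on a log axis; the dashed line is the wild-type median of all genes tested, 0.965. Med13l is lowest and Cul3 highest, and the 4 animals lie close together for most genes, though not for Adnp, which is low in knockout animal 1.

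The members are long genes: their median longest coding length in GENCODE M21 (mm10) was 5184 nt beside 1464 nt over all genes tested. Over 12079 genes, ratio and coding length had a Spearman rho of -0.11, as a description across genes that share libraries. Genes of at least 6000 nt had a median wild-type ratio of 0.713 (361 genes), and the 15 members of that length 0.531. Genes under 3000 nt had 1.01, and the 13 members of that length 0.807. The members' median was the lower in both classes, within which lengths still differ, and the part of length in the ratio was not tested. Differences between genotypes also moved with length: genes of at least 6000 nt had medians of 0.03 in total RNA and -0.07 in efficiency, against -0.03 and -0.01 under 1000 nt. The members' medians in total RNA and efficiency, 0.06 and -0.06, stand beside these values, and the part of length in them was not tested.

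**Figure D5:**
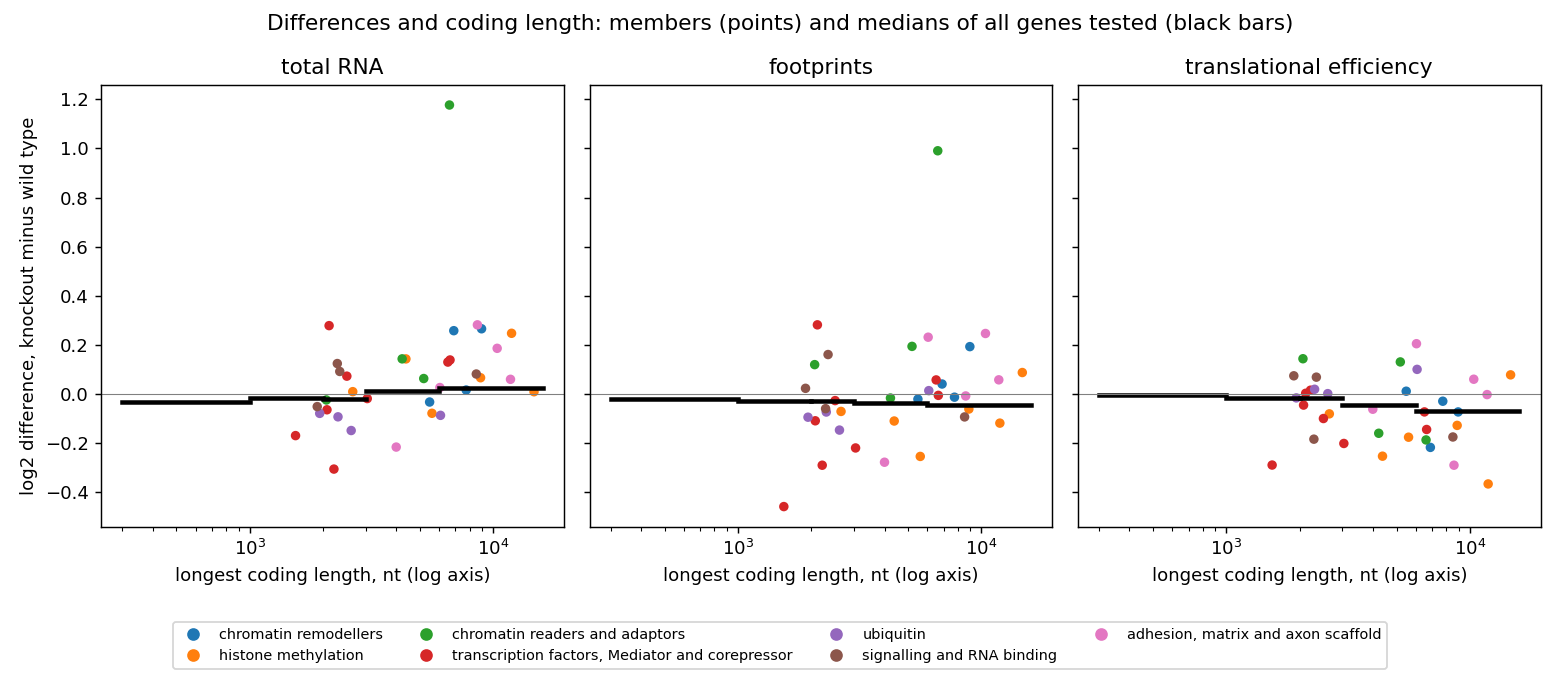
Log2 difference, knockout minus wild type, against the longest coding length on a log axis; points are members coloured by role and black bars are medians of all genes in 5 length classes. The bars rise slightly with length in total RNA and fall slightly in efficiency, and Asxl3 stands above them in total RNA and footprints.

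The 113 partner genes, which are paralogs, complex subunits and pathway neighbours of the members, gave 3 calls higher and 0 lower by limma of 112 tested in total RNA, which is 2.68% beside 4.09% of all genes. At an unadjusted p under 0.05 there were 31 (27.7% beside 22.1%), and limma-voom called 22 (19.6% beside 11.8%), 18 higher and 4 lower. Axin2, a feedback inhibitor and target of Wnt and beta-catenin signalling, rose from 8.04 and 7.01 RPKM in wild type to 15.5 and 14.5, a log2 difference of 0.91 (SE 0.11, limma adjusted p = 0.0144). Dpf3, a histone-reading BAF subunit, rose from 39.4 and 37.5 to 54.6 and 58.1, at 0.54 (SE 0.09, limma adjusted p = 0.0355). Kcna2, a potassium channel that CASPR2 clusters, rose from 5903 and 5861 to 10466 and 9888, by 0.79 (SE 0.06, limma adjusted p = 0.00398), with a ratio of means of 1.73. None of the 3 overlapped between genotypes in either kind of library. The shares of all genes with knockout higher and no overlap were 24.7% in total RNA and 17.1% in footprints. The 3 were picked by their call in total RNA, so the lack of overlap there is no further support.

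Their footprints were also higher, with ratios of means of 1.65, 1.57 and 1.59, but limma called 0 partner genes in footprints, with 11 at an unadjusted p under 0.05 (9.82% beside 10.4% of all genes). On recovered reads limma-voom called 3 in footprints (2.68% beside 1.69%), Kcna2, Dpf3 and the transcription factor Tcf3. In efficiency limma and limma-voom called 0, with 9 at an unadjusted p under 0.05 (8.04% beside 4.55%). The smallest limma adjusted p in footprints were 0.151 for Kcna2 and 0.181 for Dpf3. By group, the 6 Reelin pathway partners had a median of 0.18 in total RNA and the 5 FMRP partners -0.17. These were the highest and lowest medians among groups of more than 1 gene, and limma called none in either. In total RNA limma-voom called 3 of the first, Dab1, Vldlr and Lrp8, and 1 of the second, Cyfip1. It also called 5 of 21 BAF subunits and 4 of 15 COMPASS and histone methyltransferase genes. Every other group had 0 to 3 such calls, and the share over all genes was 11.8%. The 21 BAF subunits, Dpf3 among them, had a median of 0.04.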

How the data were processed

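Total RNA and ribosome footprints were sequenced from snap-frozen cerebellum; footprints of 28 to 34 nt were kept, and ribosomal RNA was depleted, per the labels' protocols. The tools named in the submitters' processing notes are STAR, Bowtie and Cufflinks, with the build mm10; versions, roles and counting rule are not given in the sources used here. The authors deposited RPKM per library, the ratio of footprint to total RNA RPKM per animal, and a mean read count per gene, per the file headers. The ratio was checked on 50923 values above 0.5 RPKM, all within 2% of the quotient of RPKM values. The deposited mean read count was taken as a geometric mean. Relative depths were started from steps between low values, then tuned to bring counts under that mean near whole reads. The tuning used low genes among those then scored. With these depths 99.93% of 4392 values came within 0.1 of a whole read, and 19.4% under an arithmetic mean. The arithmetic mean was given no tuning of its own, so these shares cannot decide between the means. Reads were recovered this way for 13880 genes. RPKM was compared only within a gene, since the factor between reads and RPKM differed between genes.

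Log2(RPKM + 1) was tested with limma 3.58.1 (R 4.3.3) and its variance trend over genes with a mean of at least 1 RPKM (12690 in total RNA, 12447 in footprints, 12089 in efficiency) and Benjamini-Hochberg adjustment over all of them. Fold changes on this scale understate changes of low genes. Efficiency was tested as the genotype effect in footprints minus that in total RNA, in a joint model. The design had been written for all 10 libraries, of which 8 had a column. Both libraries of an animal came from 1 lysate, per the labels' protocols, so they pair by animal; deviations of footprints and total RNA from the group means correlated at -0.004 in knockout and 0.26 in wild type over genes. The p-values rest on the spread between 2 animals a genotype, which limma drew toward the trend over all genes tested. The main efficiency model took the 8 libraries as independent, without the animal as a block. Members and lists were chosen with earlier results of these data known. Named with every library were the called members, those with the smallest p where none was called, and the 5 largest differences each way in each comparison. Alternatives were another pseudocount, filters, scalings, no trend, limma-voom on recovered reads, all libraries in 1 fit, the animal block and leaving out each animal. The tests were run on simulated data with changes larger than those of every member but Asxl3, so that run does not speak to small differences. Promoter sequences were from RefSeq (GRCm38.p6), matched by symbol. Member windows on chromosome 18, where Asxl3, Tcf4 and Wac lie, were left out, and 26 of 36 members were searched. The share over all windows did not leave out that chromosome.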

Additional observations from a re-analysis of the deposited data

How the results depend on the processing

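With 2 animals a genotype, small differences could not be resolved in most members. In total RNA the main counts were 1 member and 519 genes. With no filter on low values they were 0 and 26, with limma-voom on recovered reads 4 and 1464, with at least 100 mean reads 798 genes and with all libraries in 1 fit 217 genes. Leaving out an animal gave 0 to 1 members and 117 to 563 genes. In footprints the main counts were 0 members and 29 genes. Asxl3 was over the filter there only through its knockout libraries. All libraries in 1 fit gave 1 member (Asxl3, adjusted p = 0.0311) and 315 genes; the genes numbered 17 with a pseudocount of 0.1, 1 with no filter, 57 with at least 100 mean reads, 207 with limma-voom and 1 to 6 with an animal left out, where Asxl3 was under the filter without knockout animal 3. In efficiency the main counts were 0 members and 2 genes. The genes numbered 5 with a pseudocount of 0.1, 4 with no filter, 0 with quantile normalization, 0 with no variance trend, 1 with limma-voom and 0 with any animal left out. With the replicate block (the animal as a fixed block) efficiency gave 0 members and 1 gene. Genotypes were compared without pairing in total RNA and footprints, because the groups are different animals and the labels used here give no pairs between them. The causes were not tested.

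Leaving out an animal turned the direction of Auts2 (-0.505 to 0.066) and Foxp2 (-0.639 to 0.060) in footprints and of Kmt2c (-0.11 to 0.27), Mbd5 (-0.10 to 0.36) and Phf21a (-0.067 to 0.354) in efficiency. The members' median ran from 0.02 to 0.05 in total RNA, -0.08 to 0.05 in footprints and -0.14 to 0.01 in efficiency with an animal left out, and was 0.01 in footprints with limma-voom. Leaving out an animal moved 19 of the 30 single-member log2 differences named by the rule by over 1.5 times or in sign, 5 of 10 in total RNA, 6 of 10 in footprints and 8 of 10 in efficiency. Of the single-member values, 346 kept direction and side of the threshold, 4 newly passed it, 2 no longer passed and 7 changed sign.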
